A study of Mus musculus with 24 samples.

Results

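Cells enter the division cycle when D-type cyclins bring a cyclin-dependent kinase (CDK) into action, and CDK inhibitors hold that step back. The 10 genes described here are 6 CDK inhibitors (Cdkn1a, Cdkn1b, Cdkn1c, Cdkn2a, Cdkn2c and Cdkn2d), the 3 D-type cyclins (Ccnd1, Ccnd2 and Ccnd3) and Cdk6, a kinase that D-type cyclins bind. They were chosen by symbol, all 10 were found among the 54429 gene symbols of the deposited tables, and 9 of the 10 passed the filter on low counts. Cdkn2a did not and is given by its counts.

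The study measured RNA in macrophages grown from mouse bone marrow, in 24 libraries of 6 per group. KO M2 were cells of knockout mice for MAPKAP kinase-2 (MK2, gene Mapkapk2) treated with IL-4 (10 ng/ml) for 24 h, KO M0 were knockout cells left unstimulated, WT M2 were wild-type cells given the same IL-4, and WT M0 were unstimulated wild-type cells. All 4 groups were C57BL/6N, had grown in M-CSF at 10 ng/ml and were replated on day 7, per the labels' protocols. MK2 is a kinase downstream of p38, and IL-4 is the cytokine used to drive alternative (M2) activation. The labels give no age or sex, and do not say which part of Mapkapk2 was deleted or whether replicates came from separate animals, so the p-values measure the spread between libraries.

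The CIP and KIP inhibitors p21 (Cdkn1a), p27 (Cdkn1b) and p57 (Cdkn1c) bind complexes of cyclin and CDK, while the INK4 inhibitors p16 (Cdkn2a), p18 (Cdkn2c) and p19 (Cdkn2d) bind Cdk4 and Cdk6 and keep D-type cyclins away from them. Active Cdk4 and Cdk6 phosphorylate the retinoblastoma protein, which frees E2F factors to switch on genes of DNA synthesis. Bone marrow macrophages proliferate in M-CSF, a growth factor known to induce D-type cyclins in these cells.

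Total counts ranged from 7893809 to 13492507 per library. Mapkapk2 itself, which checks the genotype, was 54.0 ± 4.38 CPM in KO M2, 58.8 ± 2.88 CPM in KO M0, 120 ± 9.93 CPM in WT M2 and 119 ± 13.9 CPM in WT M0 (SD, n = 6 each), and its transcript was thus lower in knockout libraries but not absent. CPM are counts scaled to a common library size by TMM, except in summed marker and gene lists, which use total counts. The 10 macrophage markers together gave 13232 to 20370 CPM in every library, so the labelled cell type was present in all. The 16 stromal and fibroblast markers summed to 10.8 to 25.6 CPM in KO M2, 11.3 to 35.9 CPM in KO M0, 149 to 196 CPM in WT M2 and 162 to 240 CPM in WT M0, and all 14 of them that could be tested were lower in knockout in both states; in KO M0, 1 of the 16 had no count in any library. Their part in any genotype difference of the members was not tested. In the labels, library numbers run from 13 to 24 in replicates 1 to 3 and from 25 to 36 in replicates 4 to 6, apart from 68 (WT M0 replicate 3), 69 (WT M2 replicate 2) and 70 (KO M2 replicate 2). The sources used here do not say what the numbers stand for, and several members differed between the 2 sets of replicates, as described for each. Reads were 40 bp long, so counts of genes that overlap others or have near copies are uncertain, and the sources used here do not say whether the kit kept strand.

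The members Cdkn1a, Cdkn1b, Cdkn2c and Ccnd3 changed with IL-4 in both genotypes, and their promoters are shown here for that reason. The sequences are from RefSeq on GRCm38.p6, the build that mm10 names, and each runs 5′ to 3′ on the strand of its gene from 250 bases before an annotated start to 50 after it. For Cdkn1a, Cdkn2c and Ccnd3, which have more than 1 start in the table, the one furthest upstream is printed. Capitals mark a match to the p53 consensus in Cdkn1a (chr17:29090729-29091028, plus strand) and the GC box GGGCGG or its complement CCGCCC in Cdkn1b (chr6:134920151-134920450, plus strand), Cdkn2c (chr4:109666707-109667006, minus strand) and Ccnd3 (chr17:47504801-47505100, plus strand).
Cdkn1a: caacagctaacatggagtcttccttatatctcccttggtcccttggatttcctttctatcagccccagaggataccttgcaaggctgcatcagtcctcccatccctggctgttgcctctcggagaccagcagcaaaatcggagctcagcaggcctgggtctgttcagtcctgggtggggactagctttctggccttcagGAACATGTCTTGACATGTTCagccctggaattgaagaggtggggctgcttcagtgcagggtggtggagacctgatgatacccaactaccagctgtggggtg
Cdkn1b: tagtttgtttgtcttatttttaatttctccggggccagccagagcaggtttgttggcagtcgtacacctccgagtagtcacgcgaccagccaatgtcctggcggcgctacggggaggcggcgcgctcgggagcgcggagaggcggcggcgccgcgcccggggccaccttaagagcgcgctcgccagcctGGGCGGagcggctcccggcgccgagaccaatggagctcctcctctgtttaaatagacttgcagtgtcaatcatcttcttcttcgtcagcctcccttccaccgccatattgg
Cdkn2c: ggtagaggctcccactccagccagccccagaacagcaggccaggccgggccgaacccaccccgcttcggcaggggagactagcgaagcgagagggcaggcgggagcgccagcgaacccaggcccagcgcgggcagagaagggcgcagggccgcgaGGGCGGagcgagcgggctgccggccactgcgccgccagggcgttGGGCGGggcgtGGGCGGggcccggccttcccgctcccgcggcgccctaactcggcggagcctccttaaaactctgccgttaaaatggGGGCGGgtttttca
Ccnd3: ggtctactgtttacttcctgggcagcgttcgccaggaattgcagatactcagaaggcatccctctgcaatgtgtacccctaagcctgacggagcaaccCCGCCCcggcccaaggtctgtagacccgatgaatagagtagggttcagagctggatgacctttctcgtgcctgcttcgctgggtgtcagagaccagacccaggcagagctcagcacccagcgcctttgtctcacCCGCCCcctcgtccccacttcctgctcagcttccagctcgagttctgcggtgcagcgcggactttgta

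The table held 11 promoters for 7 of the 10 members, and none was matched for Cdkn1c, Ccnd1 or Ccnd2. The p53 match of Cdkn1a began 51 bases before its upstream start. The match holds 2 adjoining half-sites with at most 1 mismatch, a pattern found in 0.0883% of all 32851 promoters. The promoter of the downstream Cdkn1a start held 0 p53 matches and 2 GC boxes. A GC box on either strand occurred in 8 of the 11 promoters, against 35.7% of all promoters and 61.7% of the promoters of genes tested. The STAT6 pattern, TTC and GAA with any 4 bases between them, was in 0 of the 11 promoters, against 6.95% of all. The E2F pattern (TTTCCCGC or TTTGGCGC) was in 1 of the 11, the upstream start of Cdkn2a, against 1.56% of all, and the E-box CACGTG was in 2, the downstream start of Cdkn2c and Cdk6, against 7.15% of all. None of these patterns overlapped another in the members, and a match of letters does not show that a factor binds.

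Levels of different genes were compared in GETMM, the deposited values scaled for gene length. In WT M0 the order was Cdkn1a, Ccnd1, Cdk6, Cdkn1b, Cdkn2c, Ccnd3, Cdkn1c, Cdkn2d, Ccnd2 and Cdkn2a. Cdkn1a averaged 206 ± 12.9 GETMM in KO M2, 169 ± 10.9 GETMM in KO M0, 194 ± 26.6 GETMM in WT M2 and 162 ± 7.92 GETMM in WT M0 (SD, n = 6 each). Ccnd1 averaged 104 ± 23.2 GETMM in KO M2, 153 ± 42.4 GETMM in KO M0, 71.2 ± 15.6 GETMM in WT M2 and 89.2 ± 23.2 GETMM in WT M0. Those were the highest members in all 4 groups, and their ranges overlapped only in KO M0. From Cdk6 (26.4 ± 3.12 GETMM in WT M0) down to Ccnd2 (4.11 ± 1.35 GETMM in WT M0) each gene's range in WT M0 overlapped that of its neighbour in the order. Cdkn2a (0.806 ± 0.514 GETMM in WT M0) stayed below every other member in both wild-type groups and overlapped Ccnd2 in both knockout groups. Cdkn1c was the third highest member in KO M2 and KO M0 and lay by its mean below Cdk6, Cdkn1b and Cdkn2c in WT M2 and WT M0.

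**Figure D1:**
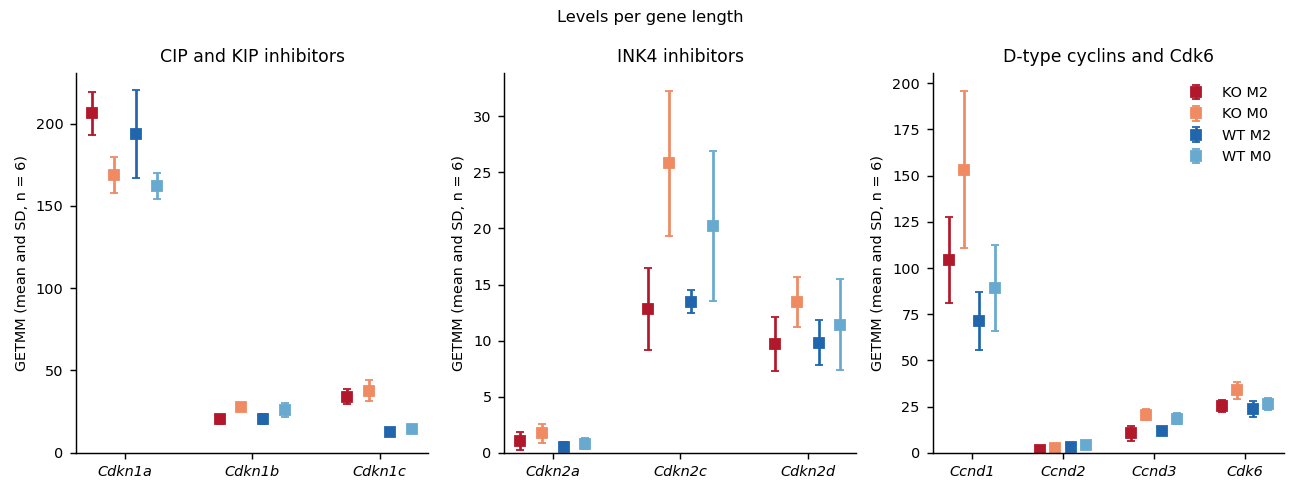
Level per gene length (deposited GETMM values, mean and SD of 6 libraries) of the 10 members in KO M2, KO M0, WT M2 and WT M0, with 1 panel for each family and its own axis. Cdkn1a and Ccnd1 stood highest in each group, Cdkn2a and Ccnd2 lowest, and Cdkn1c differed by genotype.

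Within the CIP and KIP family Cdkn1c made up 13.04% ± 1.63 of summed GETMM in KO M2, 16.1% ± 2.73 in KO M0, 5.51% ± 0.574 in WT M2 and 7.13% ± 1.32 in WT M0 (SD, n = 6 each). Cdkn1a supplied most of that family in every group, 72.0% ± 3.09 in KO M0 at its lowest and 85.3% ± 2.35 in WT M2 at its highest. The D-type cyclins were mostly Ccnd1, with 89.9% ± 2.61 in KO M2, 86.7% ± 1.36 in KO M0, 82.5% ± 2.83 in WT M2 and 79.4% ± 2.43 in WT M0. Ccnd2 held 1.27% ± 0.259 of them in KO M2, 1.29% ± 0.454 in KO M0, 3.72% ± 0.667 in WT M2 and 3.70% ± 0.813 in WT M0. Its highest share in any knockout library, 1.799%, was below its lowest in any wild-type library, 2.68%. That share is of a sum that is mostly Ccnd1, so it also moves with Ccnd1. In CPM, Ccnd2 itself overlapped between the genotypes in both states. Cdk4, the kinase that shares this role with Cdk6, stood 5.47 ± 0.789 times as high as Cdk6 per length in KO M2, 4.06 ± 0.468 times in KO M0, 5.63 ± 1.53 times in WT M2 and 4.72 ± 0.715 times in WT M0.

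**Figure D2:**
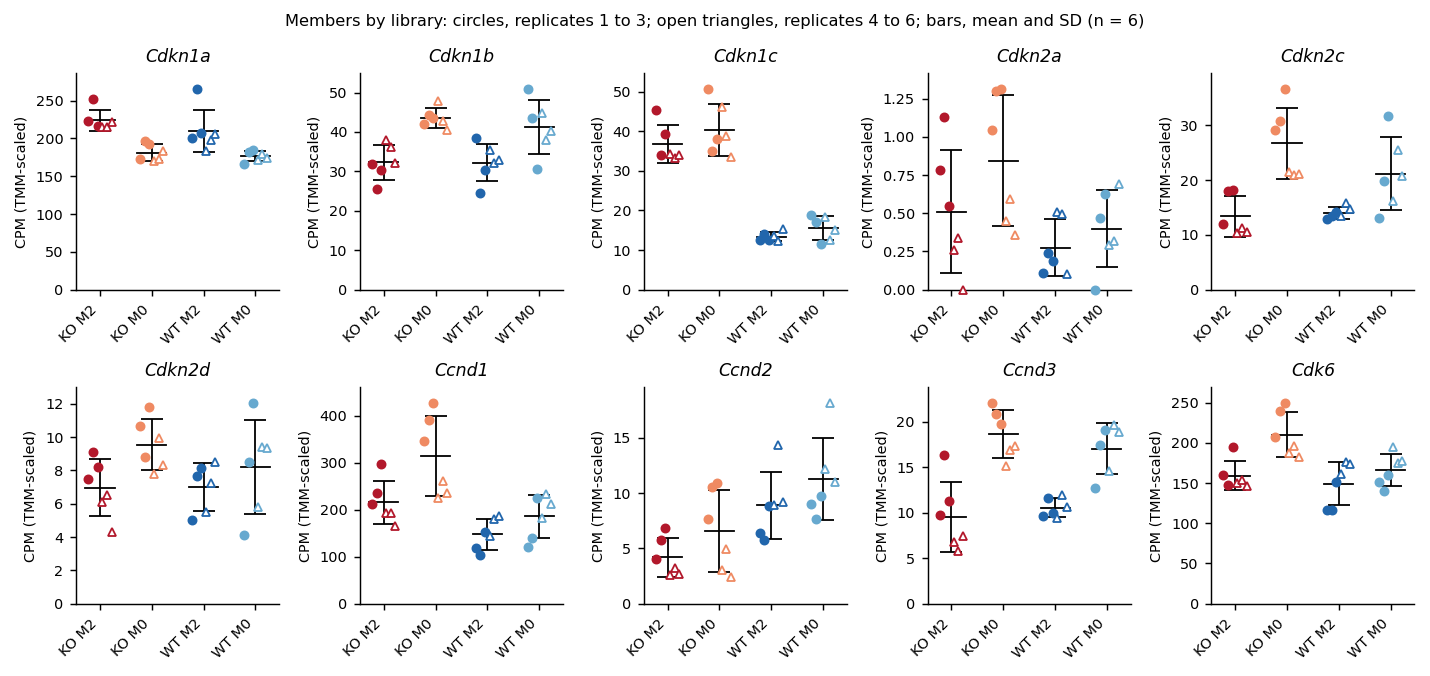
CPM of each member in every library, by group (KO M2, KO M0, WT M2, WT M0), with circles for replicates 1 to 3, open triangles for replicates 4 to 6, and bars for the mean and SD of 6. Cdkn1c separated by genotype in every library, Cdkn1a was higher and Cdkn1b, Cdkn2c and Ccnd3 lower in the M2 groups, and Ccnd1, Ccnd2 and Cdk6 differed between the sets of replicates.

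The changes were tested over all 12797 genes that passed the filter, with edgeR's quasi-likelihood (QL) test and an adjusted p under 0.05 as the threshold for a call. Fitted log2 ratios in brackets are followed by ± their standard error (SE). With IL-4 in knockout (KO M2 over KO M0) 6 of the 9 members were called, 1 higher and 5 lower, where 23.6% of all genes tested were called, 12.2% higher and 11.4% lower. With IL-4 in wild type (WT M2 over WT M0) 4 of 9 were called, 1 higher and 3 lower, against 16.4% of all genes, 8.49% higher and 7.95% lower. The members' median log2 fold change with IL-4 was -0.44 in knockout and -0.33 in wild type, while that of all genes tested was -0.0038 in knockout and -0.016 in wild type. Between genotypes, 1 of 9 was called with IL-4 (KO M2 over WT M2; higher), against 4.59% of all genes, 1.51% higher and 3.09% lower, and 2 of 9 were called without it (KO M0 over WT M0; both higher), against 4.52% of all genes, 1.1% higher and 3.42% lower. The genotype medians were 0.0040 with IL-4 and 0.21 without it over the members, and 0.0060 with IL-4 and -0.0069 without it over all genes. The contrasts share groups with each other, so they are set side by side and not correlated. In bulk RNA, fewer cells with a transcript and less transcript per cell cannot be told apart.

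**Figure D3:**
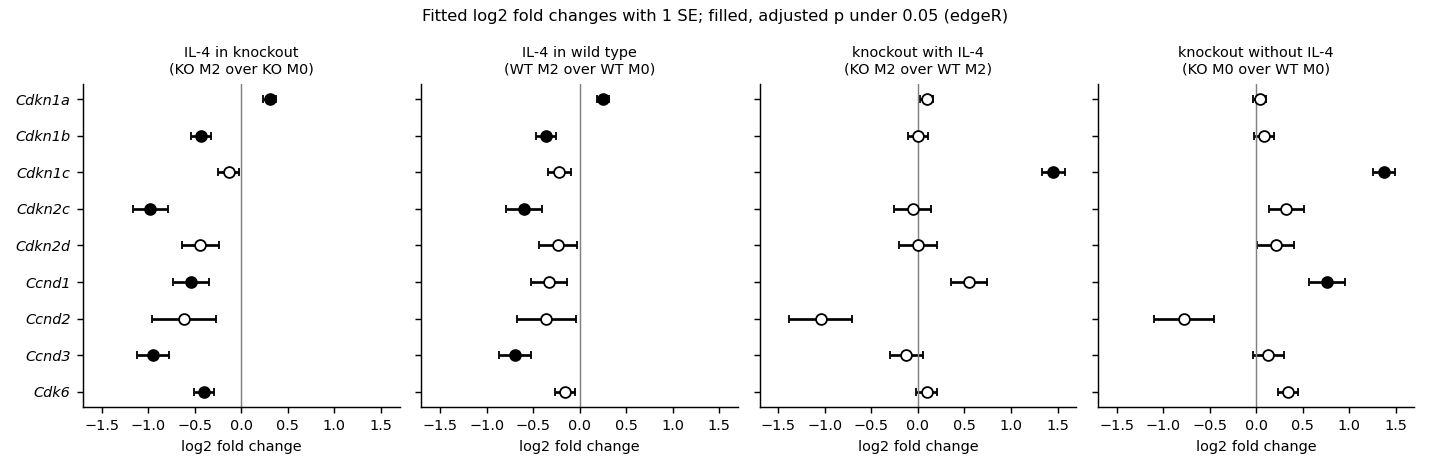
Fitted log2 fold change with 1 standard error (SE) of the 9 members tested, for IL-4 in knockout, IL-4 in wild type, knockout with IL-4 and knockout without IL-4, with filled points at an adjusted p under 0.05 (edgeR, 24 libraries). With IL-4 the points lay below 0 in both genotypes except for Cdkn1a, and between genotypes Cdkn1c stood at 1.46 with IL-4 and 1.37 without it.

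Cdkn1c (chromosome 7, 143458339 to 143461050, minus strand) encodes p57, an inhibitor linked to growth restraint in the embryo, and is an imprinted gene expressed from the maternal copy. It was higher in knockout in both states. Replicates 1 to 6 held 45.4, 34.1, 39.3, 34.2, 33.2 and 33.9 CPM in KO M2, against 12.6, 14.1, 12.5, 13.4, 12.2 and 15.2 CPM in WT M2. Without IL-4 they held 50.6, 35.1, 37.9, 46.1, 38.7 and 33.6 CPM in KO M0, against 18.9, 17.2, 11.6, 18.4, 12.7 and 14.97 CPM in WT M0. The lowest knockout library of either state, 33.2 CPM, was above the highest wild-type library, 18.9 CPM. A separation in which all libraries of the knockout lay above all of the wild type was seen in 1.09% of genes tested with IL-4 and 0.977% without it.

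The difference was 2.74-fold with IL-4 (log2 ratio 1.46 ± 0.12, adjusted p = 1.97e-09) and 2.59-fold without it (log2 ratio 1.37 ± 0.12, adjusted p = 4.17e-09) by edgeR's QL test. By p-value Cdkn1c was at place 33 of the 12797 genes with IL-4 and at place 44 without it. Within the sets of replicates, with IL-4 the log2 fold change was 1.60 in replicates 1 to 3 and 1.3 in replicates 4 to 6, and without IL-4 it was 1.41 in replicates 1 to 3 and 1.37 in replicates 4 to 6. The difference between the sets of replicates was 0.29 with IL-4 (SE 0.25, adjusted p = 0.832) and 0.02 without it (SE 0.24, adjusted p = 0.984). IL-4 gave a log2 fold change of -0.14 in knockout (SE 0.11, adjusted p = 0.454) and -0.22 in wild type (SE 0.12, adjusted p = 0.249), neither past the threshold. Leaving out any 1 library, or the 3 numbered apart, kept both genotype calls.

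Of 17 other genes tested within 1 Mb of Cdkn1c, 2 were called higher and 0 lower in knockout in each state. Over all genes tested, 1.51% were higher and 3.09% lower with IL-4, and 1.1% higher and 3.42% lower without it. Lsp1, an actin-binding protein of leukocytes 963 kb away, was higher with IL-4 (log2 ratio 0.97 ± 0.20, adjusted p = 0.00370) and without it (log2 ratio 1.06 ± 0.19, adjusted p = 0.000629). Tnfrsf26, a receptor of the tumour necrosis factor family 147 kb away, was called with IL-4 (log2 ratio 0.42 ± 0.10, adjusted p = 0.0144). Cd81, a tetraspanin 390 kb away, was called without IL-4 (log2 ratio 1.09 ± 0.27, adjusted p = 0.0182), and with IL-4 its log2 fold change was 0.89 (adjusted p = 0.0745). The tested genes nearest to Cdkn1c were not called in either state. They were Slc22a18 (12.7 kb away; log2 fold change 0.31 with IL-4 and 0.02 without it) and Nap1l4 (52.5 kb away; 0.04 with IL-4 and 0.06 without it). Kcnq1ot1, the non-coding RNA made from the paternal copy of the same imprinted domain, had a log2 fold change of 0.11 with IL-4 (SE 0.25, adjusted p = 0.951) and -0.25 without it (SE 0.25, adjusted p = 0.719). Around the other 9 members, with 4 to 55 genes tested within the same distance, 0 or 1 were called higher and 0 to 2 lower in knockout in each state.

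**Figure D4:**
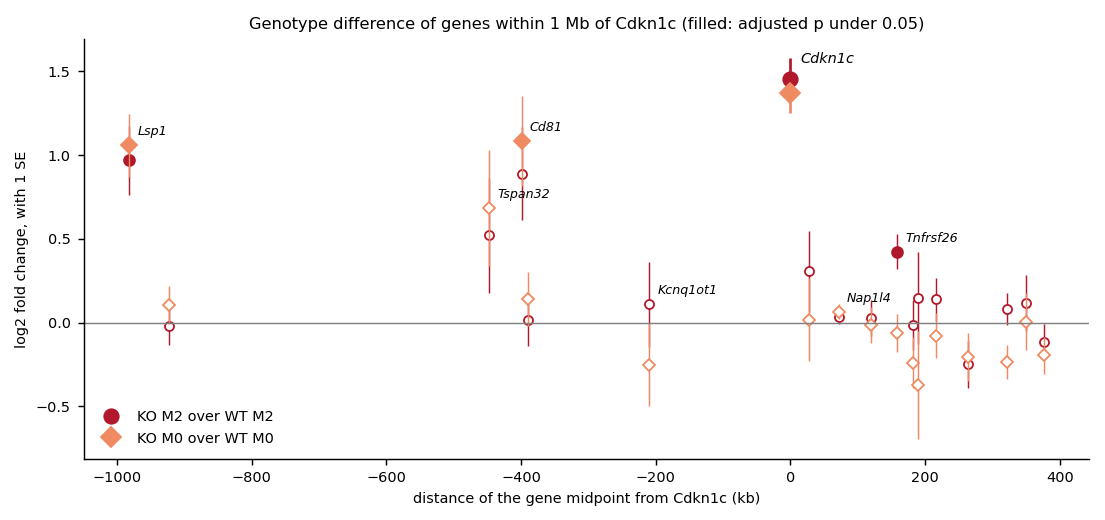
Genotype difference (fitted log2 fold change with 1 SE) of the genes tested within 1 Mb of Cdkn1c against the distance of their midpoint from it in kb, for KO M2 over WT M2 (circles) and KO M0 over WT M0 (diamonds), filled where the adjusted p was under 0.05. Cdkn1c stood at 1.46 with IL-4 and 1.37 without it, its nearest neighbours were not called, and the filled points of other genes were Lsp1, Cd81 and Tnfrsf26.

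Cdkn1a (chromosome 17, 29090976 to 29100727, plus strand) encodes p21, a textbook target of p53, whose consensus is the match in capitals in the promoter above. It was the only member to rise with IL-4 in either genotype. The 6 libraries ran from 215 CPM through a median of 219.5 CPM to 252 CPM in KO M2, against 170.0, 178 and 197 CPM in KO M0, and these groups did not overlap, as in the higher direction for 8.17% of genes tested. In WT M2 they ran from 183 CPM through 203 CPM to 265 CPM, against 167, 177 and 184 CPM in WT M0, with 1 WT M2 library (183 CPM) inside the WT M0 range. The rise was 1.24-fold in knockout (log2 ratio 0.31 ± 0.07, adjusted p = 0.00137) and 1.19-fold in wild type (log2 ratio 0.25 ± 0.07, adjusted p = 0.0118), by edgeR's QL test. The highest library of each M2 group was the one numbered apart in the labels, and without the 3 such libraries the log2 fold change was 0.27 in knockout and 0.18 in wild type, both still called. Between genotypes Cdkn1a differed by 0.09 with IL-4 (adjusted p = 0.680) and 0.04 without it (adjusted p = 0.862) on the log2 scale.

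Cdkn1b (chromosome 6, 134920401 to 134925513, plus strand) encodes p27, which accumulates in resting cells. It moved opposite to Cdkn1a. The values ran from 25.4 CPM through a median of 32 CPM to 37.8 CPM in KO M2, against 40.5, 43.2 and 47.9 CPM in KO M0. These groups did not overlap, as in the lower direction for 5.82% of genes tested. In wild type the values ran from 24.4 CPM through 32.4 CPM to 38.4 CPM in WT M2, against 30.6, 41.8 and 50.8 CPM in WT M0, which overlapped. The fall was -0.43 on the log2 scale in knockout (SE 0.11, adjusted p = 0.00360) and -0.36 in wild type (SE 0.11, adjusted p = 0.0219) by edgeR's QL test. The wild-type call was lost without WT M0 replicate 1, WT M0 replicate 4 or WT M2 replicate 2, where the adjusted p reached 0.0676 at most. The lowest Cdkn1b library of KO M2, WT M2 and WT M0 was in each case the one numbered apart. Between genotypes the log2 fold change was 0.0040 with IL-4 (adjusted p = 0.998) and 0.08 without it (adjusted p = 0.805).

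Cdkn2c (chromosome 4, 109660876 to 109667189, minus strand) encodes p18, and was the most abundant INK4 inhibitor per length in every group. It fell with IL-4. In KO M2, replicates 1 to 6 held 12.04, 18.1, 18.19, 10.4, 11.2 and 10.5 CPM, against 29.2, 30.9, 36.6, 21.5, 20.99 and 21.1 CPM in KO M0. Every KO M2 library lay below every KO M0 library, a separation in the lower direction that 5.82% of genes tested had. In WT M2 they held 12.8, 13.4, 14.2, 13.4, 15.8 and 14.8 CPM, against 13.2, 19.9, 31.8, 16.1, 25.4 and 20.7 CPM in WT M0, where replicate 1 lay inside the WT M2 range. The fold change was 0.507 in knockout (log2 ratio -0.98 ± 0.19, adjusted p = 0.000360) and 0.661 in wild type (log2 ratio -0.60 ± 0.19, adjusted p = 0.0314), by edgeR's QL test. The knockout call held in both sets of replicates, at -1.001 in replicates 1 to 3 and -0.99 in replicates 4 to 6. The wild-type call lay near the threshold and was lost in 6 of 24 fits that left out 1 library. In 5 of these the log2 fold change was -0.54 to -0.60 (adjusted p = 0.0534 to 0.0720), and without WT M0 replicate 3, the highest of its group and 1 of those numbered apart, it was -0.44 (adjusted p = 0.0956). In wild type it was -0.50 in replicates 4 to 6 alone (adjusted p = 0.0182) and -0.68 in replicates 1 to 3 alone (adjusted p = 0.177). Between genotypes Cdkn2c gave a log2 fold change of -0.06 with IL-4 (adjusted p = 0.972) and 0.32 without it (adjusted p = 0.434).

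Cdkn2d (chromosome 9, 21288410 to 21291407, minus strand) encodes p19, an INK4 inhibitor whose level follows the cell cycle. It ran from 4.33 CPM through a median of 6.99 CPM to 9.14 CPM in KO M2, against 7.76, 9.37 and 11.8 CPM in KO M0, and from 5.02 CPM through 7.45 CPM to 8.53 CPM in WT M2, against 4.14, 8.90 and 12.04 CPM in WT M0. All these ranges overlapped. The log2 fold change with IL-4 was -0.44 in knockout (SE 0.20, adjusted p = 0.116) and -0.23 in wild type (SE 0.20, adjusted p = 0.480), neither past the threshold. Between genotypes it was -0.0029 with IL-4 and 0.21 without it (adjusted p = 0.999 and adjusted p = 0.699 by edgeR). The gene was called lower with IL-4 in knockout in 5 alternatives, among them the fit without the 3 libraries numbered apart (log2 fold change -0.53, adjusted p = 0.0472) and the fit with the culture number as a block (-0.46, adjusted p = 0.00830). By edgeR it was not called in replicates 1 to 3 alone (-0.33, adjusted p = 0.548). Nor was it called in any of 24 fits that left out 1 library (adjusted p = 0.0645 to 0.249).

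Cdkn2a (chromosome 4, 89274471 to 89294653, minus strand) makes both p16, an INK4 inhibitor, and the unrelated protein p19Arf, an activator of p53, and the gene's counts cannot tell their transcripts apart. Its counts in replicates 1 to 6 were 7, 12, 7, 2, 3 and 0 in KO M2, 9, 13, 13, 5, 7 and 3 in KO M0, 1, 3, 2, 5, 4 and 1 in WT M2, and 0, 4, 8, 3, 3 and 6 in WT M0. Both genotypes were thus near the detection limit, with overlapping groups. The ratio of depth-scaled summed counts of knockout to wild type was 2.02 with IL-4 (31 against 16 counts; 95% exact counting interval 1.07 to 3.96) and 2.01 without it (50 against 24 counts; 1.22 to 3.43), and these intervals cover counting error only. By an exact two-sided permutation test over libraries (6 against 6) the genotype p was 0.229 with IL-4 and 0.0649 without it, adjusted over the 4 comparisons made to 0.305 with IL-4 and 0.260 without it. Neither passed. The ratio with IL-4 over without it was 0.646 in knockout (exact permutation p = 0.197) and 0.645 in wild type (exact permutation p = 0.342). In both knockout groups replicates 1 to 3 held more counts than replicates 4 to 6.

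Ccnd3 (chromosome 17, 47505051 to 47599691, plus strand) encodes cyclin D3, the D-type cyclin most tied to lymphoid growth. It fell with IL-4 in both genotypes. Replicates 1 to 6 held 9.70, 16.3, 11.3, 6.79, 5.83 and 7.45 CPM in KO M2, against 22.04, 20.9, 19.8, 15.2, 16.9 and 17.3 CPM in KO M0. In wild type they held 9.59, 11.6, 10.0, 9.46, 11.96 and 10.7 CPM in WT M2, against 12.7, 17.4, 19.1, 14.6, 19.6 and 18.9 CPM in WT M0. The wild-type groups did not overlap, as was so in the lower direction for 3.41% of genes tested, and in knockout KO M2 replicate 2, numbered apart, lay inside the KO M0 range. The fold change was 0.518 in knockout (log2 ratio -0.95 ± 0.17, adjusted p = 0.000182) and 0.618 in wild type (log2 ratio -0.69 ± 0.17, adjusted p = 0.00589) by edgeR's QL test. Both calls held in each fit that left out 1 library. Between genotypes the log2 fold change was -0.12 with IL-4 (adjusted p = 0.894) and 0.13 without it (adjusted p = 0.802). With IL-4 it was 0.26 in replicates 1 to 3 (adjusted p = 0.823) and -0.68 in replicates 4 to 6 (adjusted p = 0.00916), and the difference between these sets was 0.93 (SE 0.26, adjusted p = 0.0880 by edgeR).

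Ccnd1 (chromosome 7, 144929931 to 144939925, minus strand) encodes cyclin D1, the D-type cyclin that mitogens raise in most cells. It was higher in knockout without IL-4, with much of the difference in 1 set of replicates. Replicates 1 to 6 held 347, 390.1, 426, 225, 261 and 236 CPM in KO M0, against 121, 139.7, 225, 182, 233 and 212 CPM in WT M0. With IL-4 they held 211, 236, 297, 193, 194 and 166 CPM in KO M2, against 117, 105, 153, 145, 180.3 and 186 CPM in WT M2. Among replicates 1 to 3 every knockout library exceeded every wild-type library in both states, as was so in the higher direction for 7.32% of genes tested with IL-4 and 9.78% without it. Among replicates 4 to 6 the genotypes overlapped in both. Over all 6 the log2 fold change between genotypes was 0.55 with IL-4 (SE 0.19, adjusted p = 0.138) and 0.76 without it (SE 0.19, adjusted p = 0.0214), by edgeR's QL test.

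Within replicates 1 to 3 the Ccnd1 genotype difference was 0.99 with IL-4 (adjusted p = 0.0449) and 1.28 without it (adjusted p = 0.00967), and within replicates 4 to 6 it was 0.11 with IL-4 (adjusted p = 0.683) and 0.21 without it (adjusted p = 0.323). The difference between the sets was 0.88 with IL-4 (SE 0.26, adjusted p = 0.132) and 1.06 without it (SE 0.26, adjusted p = 0.0454), a test chosen after the values were seen. It called 0.781% of genes with IL-4 and 1.81% without it. The call without IL-4 was lost in 4 of 24 fits that left out 1 library (WT M0 replicate 1, WT M0 replicate 2, KO M0 replicate 2 or KO M0 replicate 3; adjusted p 0.0702 at most). With IL-4 the log2 fold change was -0.54 in knockout (SE 0.19, adjusted p = 0.0459) and -0.33 in wild type (SE 0.19, adjusted p = 0.274). With the culture number as a block, which sets each M2 library against the M0 library of its number, it was called in both, at -0.52 in knockout (adjusted p = 2.47e-05) and -0.32 in wild type (adjusted p = 0.00366). Without that block, the knockout call was lost in 12 of 24 fits that left out 1 library. The adjusted p was 0.133 without KO M0 replicate 3.

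Ccnd2 (chromosome 6, 127125162 to 127152193, minus strand) encodes cyclin D2, the least abundant D-type cyclin here, at 20 to 172 counts per library. In replicates 4 to 6 it was lower in knockout. Replicates 1 to 6 held 4.01, 5.75, 6.82, 2.61, 3.25 and 2.64 CPM in KO M2, against 6.36, 5.74, 8.80, 8.96, 14.3 and 9.24 CPM in WT M2. Without IL-4 they held 7.66, 10.6, 10.9, 3.07, 4.93 and 2.41 CPM in KO M0, against 9.04, 7.66, 9.77, 12.2, 18.1 and 11.1 CPM in WT M0. In replicates 4 to 6 each knockout library was below each wild-type library of its state, a separation that 13.9% of genes tested had with IL-4 and 13.3% without it. In replicates 1 to 3 they overlapped.

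Over all 6 replicates the Ccnd2 log2 fold change between genotypes was -1.04 with IL-4 (SE 0.34, adjusted p = 0.0928) and -0.78 without it (SE 0.32, adjusted p = 0.225), neither past the threshold of edgeR's QL test. Within replicates 1 to 3 it was -0.32 with IL-4 (adjusted p = 0.786) and 0.16 without it (adjusted p = 0.843), and within replicates 4 to 6 it was -1.92 with IL-4 (adjusted p = 0.000898) and -1.95 without it (adjusted p = 0.000487). The sets differed by 1.60 with IL-4 (SE 0.38, adjusted p = 0.0509) and by 2.10 without it (SE 0.36, adjusted p = 0.0114). With IL-4 the stromal markers summed to 10.8 to 25.6 CPM in KO M2 replicates 1 to 3, 11.7 to 19.2 CPM in KO M2 replicates 4 to 6, 149 to 166 CPM in WT M2 replicates 1 to 3 and 149 to 196 CPM in WT M2 replicates 4 to 6. In KO M0 they summed to 11.3 to 35.9 CPM in replicates 1 to 3 and 13.5 to 15.8 CPM in replicates 4 to 6. In WT M0 they summed to 162 to 230 CPM in replicates 1 to 3 and 171 to 240 CPM in replicates 4 to 6. Their part in the Ccnd2 differences was not tested. With IL-4 Ccnd2 gave log2 fold changes of -0.62 in knockout (SE 0.34, adjusted p = 0.222) and -0.36 in wild type (SE 0.32, adjusted p = 0.493), neither called, and with the culture block it was called in both, at -0.61 in knockout (adjusted p = 0.00113) and -0.35 in wild type (adjusted p = 0.0279).

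Cdk6 (chromosome 5, 3341485 to 3531008, plus strand) is a partner of the D-type cyclins and is high in blood progenitors. It fell with IL-4 in knockout. Replicates 1 to 6 held 160.5, 148, 194, 150.1, 154 and 146 CPM in KO M2, against 207, 239.5, 249, 187, 197 and 183 CPM in KO M0. In wild type they held 116, 117, 152, 162, 176 and 173 CPM in WT M2, against 151, 140.4, 159.8, 195, 175 and 177 CPM in WT M0. Only KO M2 replicate 3 lay inside the KO M0 range, while the wild-type groups overlapped broadly. The log2 fold change with IL-4 was -0.40 in knockout (SE 0.11, adjusted p = 0.00699) and -0.16 in wild type (SE 0.11, adjusted p = 0.358), by edgeR's QL test. Between genotypes it was 0.09 with IL-4 (adjusted p = 0.859) and 0.34 without it (adjusted p = 0.0821; DESeq2 adjusted p = 0.0464).

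Without IL-4 the genotype difference of Cdk6 was 0.65 in replicates 1 to 3 (adjusted p = 0.0220) and 0.06 in replicates 4 to 6 (adjusted p = 0.567), and the sets differed by 0.58 (SE 0.15, adjusted p = 0.0454). With IL-4 it was 0.39 in replicates 1 to 3 (adjusted p = 0.248) and -0.18 in replicates 4 to 6 (adjusted p = 0.0467), and the sets differed by 0.57 (SE 0.15, adjusted p = 0.0673 by edgeR). For Cdkn1a, Cdkn1b, Cdkn1c, Cdkn2c and Cdkn2d the difference between the sets was not past the threshold in either state, the smallest adjusted p being 0.413 for Cdkn2c with IL-4.

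**Figure D5:**
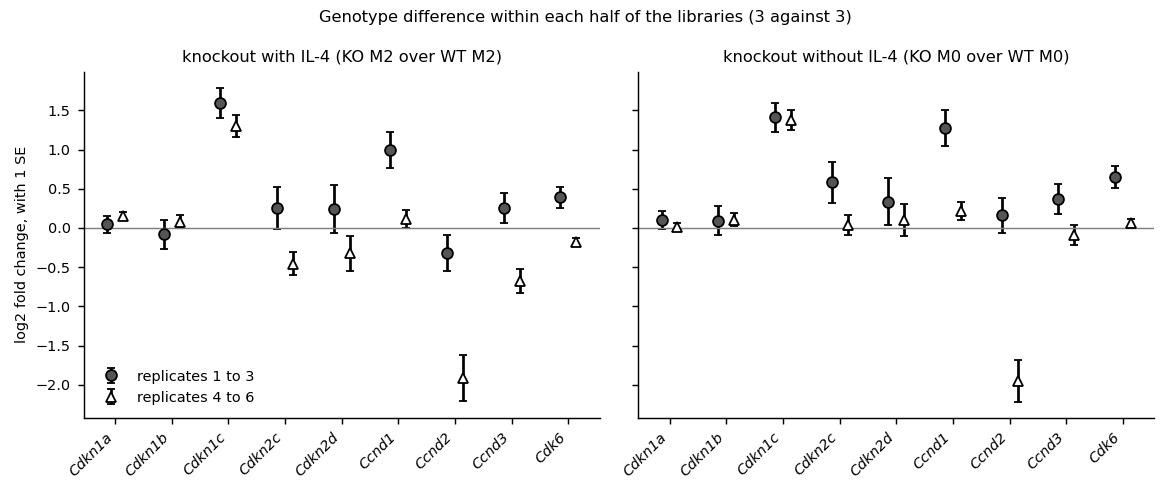
Genotype difference (fitted log2 fold change with 1 SE) of the 9 members tested within replicates 1 to 3 (filled circles) and within replicates 4 to 6 (open triangles), with IL-4 at left and without it at right, 3 libraries against 3 in each fit. Cdkn1c was above 1 in all 4 fits, Ccnd1 and Cdk6 were higher in replicates 1 to 3, and Ccnd2 was near -1.9 in replicates 4 to 6, against -0.32 with IL-4 and 0.16 without it in replicates 1 to 3.

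The IL-4 responses of the genotypes were also set against each other in 1 test (KO M2 over KO M0, against WT M2 over WT M0). None of the 9 members passed, with an adjusted p of 0.9998 for each, and 0 of 12797 genes did so by edgeR, against 0 by DESeq2 and 3 by limma among the same genes. DESeq2, which was run without the count filter, called 1 gene outside them. At an unadjusted p under 0.05 there were 390 genes and 0 members. The largest differences among the members were -0.38 for Cdkn2c (SE 0.27), -0.26 for Ccnd2 (SE 0.47), -0.25 for Ccnd3 (SE 0.24) and -0.24 for Cdk6 (SE 0.15) on the log2 scale. Calls that passed in knockout and not in wild type without a culture block (Ccnd1 and Cdk6) are therefore not shown to differ between genotypes.

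Genes that act with or after the members were counted from lists chosen by role, with earlier results of these data known. Of 23 E2F target genes, which carry out DNA synthesis and division, 20 were lower and 0 higher with IL-4 in knockout (median log2 fold change -0.74), and 16 were lower and 0 higher in wild type (median -0.56). Mcm3, a subunit of the replicative helicase, averaged 38.4 CPM in KO M2 and 61.2 CPM in KO M0 (log2 fold change -0.67, adjusted p = 4.88e-05), and 37.8 CPM in WT M2 and 52.5 CPM in WT M0 (log2 fold change -0.48, adjusted p = 0.00318). With IL-4, 87% of the 23 were lower in knockout and 69.6% in wild type, against 11.4% and 7.95% of all genes tested. Between genotypes 0 of the 23 were called in either state by edgeR, with medians of 0.13 with IL-4 and 0.34 without it. Of all genes tested, 4.59% were called with IL-4 and 4.52% without it, so 0 of 23 is near that share. The summed level of the 23 also differed by set of replicates. In replicates 1 to 3 it was 2199 to 2375 CPM in KO M0 and 1200 to 1904 CPM in WT M0. In replicates 4 to 6 it was 1635 to 1779 CPM in KO M0 and 1538 to 1736 CPM in WT M0. With IL-4 it was 1253 to 1574 CPM in KO M2 and 992 to 1264 CPM in WT M2 in replicates 1 to 3. In replicates 4 to 6 the order was the other way, at 1179 to 1222 CPM in KO M2 and 1232 to 1440 CPM in WT M2. Its part in the members' differences was not tested.

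Among 25 partners of the G1 to S step, 24 were tested, and 11 were lower and 0 higher with IL-4 in knockout (median -0.18), against 7 lower and 0 higher in wild type (median -0.10). They included E2f2, an activating E2F (log2 fold change -0.93 in knockout, adjusted p = 0.000360, and -0.87 in wild type, adjusted p = 0.00156), and Tfdp2, a dimer partner of the E2F factors (-0.74 in knockout, adjusted p = 5.74e-06, and -0.46 in wild type, adjusted p = 0.00244). E2f7 and E2f8, both repressive E2F factors, fell by 1.07 and 1.00 in knockout and by 0.90 and 0.74 in wild type on the log2 scale. With IL-4, 45.8% of the 24 were lower in knockout and 29.2% in wild type, against 11.4% and 7.95% of all genes tested. None of the 24 was called between genotypes, where 4.59% of all genes were called with IL-4 and 4.52% without it. Cdk4, Rb1, E2f1 and Myc were not called in any contrast; Cdk4 averaged 87.7 CPM in KO M2, 85.8 CPM in KO M0, 82.2 CPM in WT M2 and 79.0 CPM in WT M0. The INK4 gene next to Cdkn2a, Cdkn2b, did not pass the filter, at 0.551 ± 0.187 GETMM in KO M2, 0.668 ± 0.215 GETMM in KO M0, 0.482 ± 0.163 GETMM in WT M2 and 0.555 ± 0.232 GETMM in WT M0 (SD, n = 6 each).

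Of 20 other p53 target genes, a few were called in either direction with IL-4. With IL-4 in knockout 1 was higher, Aen (log2 fold change 0.26, adjusted p = 0.0272), and 2 were lower, Pmaip1 (-0.50, adjusted p = 0.000115) and Sesn2 (-0.39, adjusted p = 0.00628). In wild type 1 was higher, Tigar (0.26, adjusted p = 0.0303), and 3 were lower, Pmaip1 (-0.39, adjusted p = 0.00294), Mdm2 (-0.23, adjusted p = 0.0215) and Sesn2 (-0.33, adjusted p = 0.0243). Pmaip1 is the death factor Noxa, Mdm2 the ligase that degrades p53, and Sesn2 a stress protein that restrains growth signalling. By share 5% were higher and 10% lower in knockout, against 12.2% and 11.4% of all genes tested, and 5% were higher and 15% lower in wild type, against 8.49% and 7.95%. The median over the 20 was 0.04 in knockout and 0.02 in wild type. Between genotypes 1 of the 20 was higher and 0 lower in each state, Plk2 with IL-4 (0.22, adjusted p = 0.0434) and Zmat3 without it (0.20, adjusted p = 0.0462). By share 5% were called in each state. Of all genes tested, 4.59% were called with IL-4 (1.51% higher) and 4.52% without it (1.1% higher).

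For each member the genes whose log2 CPM followed it most closely over the 24 libraries were found among 9575 genes whose mean log2 CPM was 2 or more, as a description in which libraries share group, depth and set. Cdkn1c was followed by Wdfy1 (Pearson r = 0.94), Tnip3 (0.90) and Chst3 (0.85). Ccnd1 was followed by Kpnb1 (0.96), Slc20a1 (0.95) and Slc38a1 (0.93), and Cdk6 by Hmga2 (0.94), Tmpo (0.93) and Nsd2 (0.93). Cdkn2c was followed by Mcm7 (0.95), a helicase subunit, Ncapd2 (0.95) and Parp1 (0.95), Ccnd3 by Cdc20 (0.94), Igfbp4 (0.93) and Gas6 (0.93), and Cdkn2d by Trim35 (0.92), Rpa1 (0.89) and Suv39h1 (0.88). Cdkn1a was followed by Lgals1 (0.92), Ddost (0.92) and Lmna (0.92), Cdkn1b by Rabgap1l (0.92), Klf6 (0.92) and Zscan26 (0.90), and genes close to Ccnd2 included Tmem154 (0.86) and AI506816 (0.85). Among the members themselves r was highest for Cdkn2c with Ccnd3 (0.91) and lowest for Cdkn1a with Cdkn1b (-0.83). After group means were taken out, Ccnd1 and Ccnd2, whose log2 fold changes between genotypes had opposite signs, had an r of 0.85, and over all 24 libraries they had an r of 0.09.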

How the data were processed

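Per the labels' protocols, the 24 libraries came from a Kapa Hyperprep kit and gave 40 bp single-end reads. The authors deposited rounded expected counts of each gene and a table named GETMM, a length-scaled signal that equals count times 1 gene factor and 1 library factor on the 13047 genes above 0 throughout. Per the submitters' processing notes, the build was mm10 and the tools included edgeR, RSEM 1.3.0, CASAVA 2.8.0 and Bowtie2 2.3.4.1. Columns were matched by the names in the labels, and 0 were left unmatched.

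Genes were kept by filterByExpr (minimum count 10; 12797 genes, 99.8% of counts), libraries scaled by TMM, and differences tested with edgeR 4.0.16 in R 4.3.3 (robust quasi-likelihood, 4 groups in 1 fit, no covariate), with Benjamini-Hochberg adjustment over all genes and a threshold of 0.05. SE is the log2 ratio over the root of its F. The fit was tested on simulated counts for IL-4 in wild type. It recovered 69.7% of 1.5-fold, 80.6% of 2-fold and 96.9% of 4-fold changes, and 5.23% of its calls were false. The simulated counts held no differences between cultures or sets of replicates. Total counts of 7893809 to 13492507 set the precision, and PCR reads are not independent molecules. Libraries within a group differed by more than sampling noise (chi-square per degree of freedom at least 2.62). Marker and list sums are CPM by each library's total count, without TMM factors. Positions are GENCODE M21 on mm10.

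The members and lists were chosen with earlier results of these data known. All 10 members are named, with Mapkapk2, the 3 genes that follow each member most closely (predicted genes left out), up to 4 genes of a list per contrast (given in both genotypes), Cdk4, Cdkn2b, Myc, Rb1 and E2f1, and genes within 1 Mb of Cdkn1c called between genotypes. Some genes named by this rule are not reported here. Alternatives were RLE size factors, no count filter, CPM of at least 1 in 6 libraries, a library-number set as covariate, fits of 2 groups, leaving out the 3 libraries numbered apart or each library, replicates 1 to 3 or 4 to 6 alone, replicate or culture number as a block, DESeq2 1.42.0, and limma 3.58.1 on log2(GETMM + 1).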

Additional observations from a re-analysis of the deposited data

Results flagged for a closer look

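In 3 of the 40 groups of 6 libraries examined for the 10 members, 1 library lay apart from the others, with a gap to the nearest library that, as a share of the group's range, was above Dixon's critical value. Chance gives about 1 in 20 such groups. Cdkn1a was 251.8 CPM in KO M2 replicate 2, where the next library had 223 CPM (gap 0.778 of the range). It was 264.9 CPM in WT M2 replicate 2, where the next had 206.5 CPM (0.715 of the range). Both of these libraries are numbered apart from the rest in the labels. Cdk6 was 194.5 CPM in KO M2 replicate 3, where the next library had 160.5 CPM (0.704 of the range).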

How the results depend on the processing

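Of 513 values of single members under alternatives other than leaving out 1 library, 462 kept direction and side of the threshold, 19 lost the call, 17 gained one and 15 changed sign. The members called with IL-4 in wild type were 0 in replicates 1 to 3 alone and 2 to 4 without 1 library; between genotypes without IL-4 they were 1 with no count filter, 1 in the fit of 2 groups and 1 to 2 without 1 library; with IL-4 they were 2 in the fit of 2 groups, 2 by DESeq2, 2 in replicates 1 to 3 alone and 4 in replicates 4 to 6 alone. Calls between genotypes among the genes of the main fit moved too. With IL-4 they were 152 higher and 303 lower in the fit of 2 groups and 269 and 403 by DESeq2, against 193 and 395 in the main fit. Without IL-4 they were 106 and 345 with no count filter and 119 and 316 in the fit of 2 groups, against 141 and 438. Genes called near Cdkn1c were 1 with no count filter and 4 in replicates 1 to 3 alone without IL-4, and with IL-4 1 without the libraries numbered apart and 0 in replicates 4 to 6 alone. Over all genes that passed the filter in the libraries of each fit (12844 in replicates 1 to 3 alone, 12797 otherwise, not all the same genes in replicates 4 to 6 alone) the counts were 1472 (IL-4 in knockout) and 857 (IL-4 in wild type) in replicates 1 to 3 alone; 919 with IL-4 and 1044 without it between genotypes under a term for the set of numbers; 1056 with and 956 without IL-4 in replicates 4 to 6 alone; 305 with IL-4 in replicates 1 to 3 alone; and for the difference between responses 21 in replicates 4 to 6 alone and 2 with the culture block.

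Signs changed only for values not called over all libraries. In replicates 1 to 3 alone these were Ccnd2 without IL-4 (0.16), with IL-4 Cdkn1b (-0.082), Cdkn2c (0.26), Cdkn2d (0.25) and Ccnd3 (0.26), and Cdkn1a in the difference between responses (-0.055). In replicates 4 to 6 alone they were Ccnd3 without IL-4 (-0.093), Cdk6 with IL-4 (-0.18) and, in the difference, Cdkn1c (-0.073) and Ccnd2 (0.034). Cdkn2d between genotypes with IL-4 was 0.00072 with RLE, 0.010 with no filter, 0.00089 with the CPM filter, 0.0012 by DESeq2 and -0.10 to 0.10 without 1 library. Cdkn1b with IL-4 was -0.0060 without the libraries numbered apart and -0.066 to 0.065 without 1 library, and in the difference between responses -0.15 to 0.0015. Cdkn2c with IL-4 was -0.17 to 0.0041 without 1 library. The cause was not tested.

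The replicate block did not change the number of members called in any contrast (6 with IL-4 in knockout, 4 with IL-4 in wild type, 1 and 2 between genotypes with and without IL-4, and 0 for the difference). With the culture number as a block, shared in the labels by 1 M2 and 1 M0 library of a genotype, 8 members were called with IL-4 in knockout and 6 in wild type, adding Cdkn2d and Ccnd2 in knockout (-0.46 and -0.61) and Ccnd1 and Ccnd2 in wild type (-0.32 and -0.35). Calls over all genes tested also rose with the culture block. In knockout they were 1733 higher and 1713 lower, against 1563 and 1461 in the main fit. In wild type they were 1304 higher and 1318 lower, against 1086 and 1017. The labels do not say what the replicate number or the culture number marks. In their deviations from group means, libraries of 1 culture number correlated from -0.108 to 0.504, above 0.1 in 8 of 12 pairs, and 6 of 12 were closest to their own partner; those of 1 replicate number across genotypes correlated from -0.464 to 0.608, above 0.1 in 6 of 12 pairs. Neither number met 0.1 in every pair. Depth limits Cdkn2a, at 0 to 13 counts per library.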
